A study of Homo sapiens with 12 samples.

Results

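The APOBEC3 genes encode cytidine deaminases, enzymes that turn cytosine into uracil in single-stranded DNA. All 7 human members, APOBEC3A, APOBEC3B, APOBEC3C, APOBEC3D, APOBEC3F, APOBEC3G and APOBEC3H, were taken by symbol from an RNA-seq table of 26485 genes in BT474 cells, an established HER2-amplified human breast cancer line. Each of the 7 had a row, 5 had at least 1 read in any library, and 2, APOBEC3B and APOBEC3F, passed a filter on low values (at least 1 in at least 3 of the 12 libraries) that left 13794 genes for testing.

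The table held 4 groups of 3 libraries from unmodified BT474 cells grown in RPMI with fetal bovine serum. Control cells were labelled day 0. DTP (drug-tolerant persister) cells were collected on day 9, DTEP (drug-tolerant expanded persister) cells in month 6 and LR (long-term resistant, titled Resistant) cells in month 9 of lapatinib at 1 µM, a drug that blocks the kinase activity of EGFR and HER2. The treatment label of the Control libraries also reads lapatinib at 1 µM, although their titles say Control and day 0. The groups came from a single cell line and differ in time as well as drug exposure, and no untreated culture of month 6 or month 9 was among the libraries, so time in culture and drug cannot be told apart. The study calls the libraries technical replicates in its results and parallel plates in a legend, so the p-values measure the spread between these libraries, which may be technical.

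The libraries held 16383363 to 25030482 reads assigned to genes. Values are normalised read counts, that is, CPM after scaling between libraries, and 1 read was worth 0.0412 to 0.0576 of that unit. Pearson's r across the tested genes was 0.997 to 0.998 within Control, 0.983 to 0.996 within DTP, 0.934 to 0.982 within DTEP and 0.971 to 0.984 within LR. DTEP replicate 3 stood apart from its group: its r was 0.934 to 0.962 with the other DTEP libraries and 0.971 to 0.986 with the LR libraries. Of 15 luminal breast epithelial markers, 14 to 15 reached a value of 1 in each group. APOBEC3 genes are also expressed in blood cells, and of 16 blood cell markers 8 had no read and 12 (PTPRC among them, with 3) had fewer than 10 reads in all 12 libraries together. The summed level of those 16 markers was 2.67 to 4.08 for Control, 6.28 to 7.90 for DTP, 2.75 to 5.15 for DTEP and 1.49 to 1.94 for LR, mostly from LYZ and CD68, and its part in the results was not tested.

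As background, the family acts in innate defence, where it deaminates the DNA of retroviruses and endogenous retroelements during reverse transcription. APOBEC3A and APOBEC3B are also known as sources of C-to-T and C-to-G mutations in tumour genomes. APOBEC3B is largely nuclear, whereas APOBEC3F and APOBEC3G are cytoplasmic and best known for restricting HIV-1 that lacks Vif. Uracil left in DNA is removed by the glycosylase UNG, and transcription of the family is known to respond to interferon, NF-kB and cell cycle regulators of the FOXM1 and DREAM kind.

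The members lie side by side on the long arm of chromosome 22, all on the forward strand, over 146459 bases. In the RefSeq annotation of GRCh38 (hg38, the build named for the files), APOBEC3A spans chr22:38957609-38963184, APOBEC3B chr22:38982347-38992779, APOBEC3C chr22:39014257-39020352, APOBEC3D chr22:39021127-39033277, APOBEC3F chr22:39040864-39055972, APOBEC3G chr22:39077005-39087743 and APOBEC3H chr22:39097244-39104067. The canonical GENCODE 44 coding sequences carried 1 zinc-binding deaminase motif in APOBEC3A, APOBEC3C and APOBEC3H, of 199, 190 and 183 residues. They carried 2 motifs in APOBEC3B, APOBEC3D, APOBEC3F and APOBEC3G, of 382, 386, 373 and 384 residues.

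The members are close copies of each other, which bears on how reads can be assigned. Of all stretches of 50 bases in the canonical transcript, 34.6% of those of APOBEC3B, 24.1% of those of APOBEC3A, 15.3% of those of APOBEC3D and 11.0% of those of APOBEC3F occurred exactly in another member, against 13.0% for APOBEC3G, 1.23% for APOBEC3C and 0 for APOBEC3H. The longest identical coding runs are shown because they join each tested member to a neighbour with few reads. The run of 222 bases lies at chr22:39029494-39031889 in exons 5 to 6 of 7 of APOBEC3D and at chr22:39049556-39052269 in exons 5 to 6 of 7 of APOBEC3F. The run of 196 bases lies at chr22:38959685-38961580 in exons 2 to 3 of 5 of APOBEC3A and at chr22:38989609-38991525 in exons 5 to 6 of 8 of APOBEC3B. Both are given 5′ to 3′ on the forward strand, spliced, with the codons of the zinc-binding motif from its first proline to its second cysteine in capitals.
APOBEC3D and APOBEC3F: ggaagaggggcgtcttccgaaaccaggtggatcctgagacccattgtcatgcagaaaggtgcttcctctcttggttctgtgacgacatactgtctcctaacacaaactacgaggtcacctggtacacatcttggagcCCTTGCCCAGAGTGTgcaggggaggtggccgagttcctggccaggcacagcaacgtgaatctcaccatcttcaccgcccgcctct
APOBEC3A and APOBEC3B: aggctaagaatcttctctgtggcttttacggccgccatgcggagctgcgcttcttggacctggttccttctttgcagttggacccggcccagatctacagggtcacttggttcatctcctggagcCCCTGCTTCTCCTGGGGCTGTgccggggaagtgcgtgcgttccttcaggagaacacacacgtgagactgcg
The second run reaches across the deaminase motif of APOBEC3A and the motif of APOBEC3B that lies nearer its C-terminus. The 2 tested members also share an identical coding run with each other, of 131 bases. It lies at coding bases 194 to 324 of APOBEC3B and 191 to 321 of APOBEC3F and is not printed here. Reads that fall wholly in such runs cannot be told apart between the genes, and the values of these members are uncertain to that extent. How the authors' counting treated reads from shared runs was not tested. As deposited, APOBEC3D had 0 to 2 reads per group and APOBEC3F 89 to 838, and APOBEC3A had 0 reads in DTEP replicates 2 and 3, where APOBEC3B stood at 42.5 and 32.6.

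APOBEC3B fell in DTP cells and was high again in DTEP cells, whereas APOBEC3F did not pass the test in DTP cells and fell in both later groups. From DTP to DTEP the 2 members changed in opposite directions. In bulk RNA, fewer cells that express a gene and less of its RNA per cell cannot be told apart.

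APOBEC3B, the nuclear member, stood at 25.2, 24.9 and 26.2 normalised read counts in Control, a mean of 25.4 ± 0.704 (SD, n = 3). In DTP it was 2.04, 2.07 and 2.53 (2.21 ± 0.277). In DTEP it was 43.1, 42.5 and 32.6 (39.4 ± 5.90). All DTP libraries lay below all others, and all DTEP libraries lay above all others, with DTEP replicate 3 the lowest of its group. In LR it was 22.4, 6.75 and 29.8 (19.7 ± 11.8), so LR replicate 2 stood far below the other LR libraries and the group overlapped Control.

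**Figure D1:**
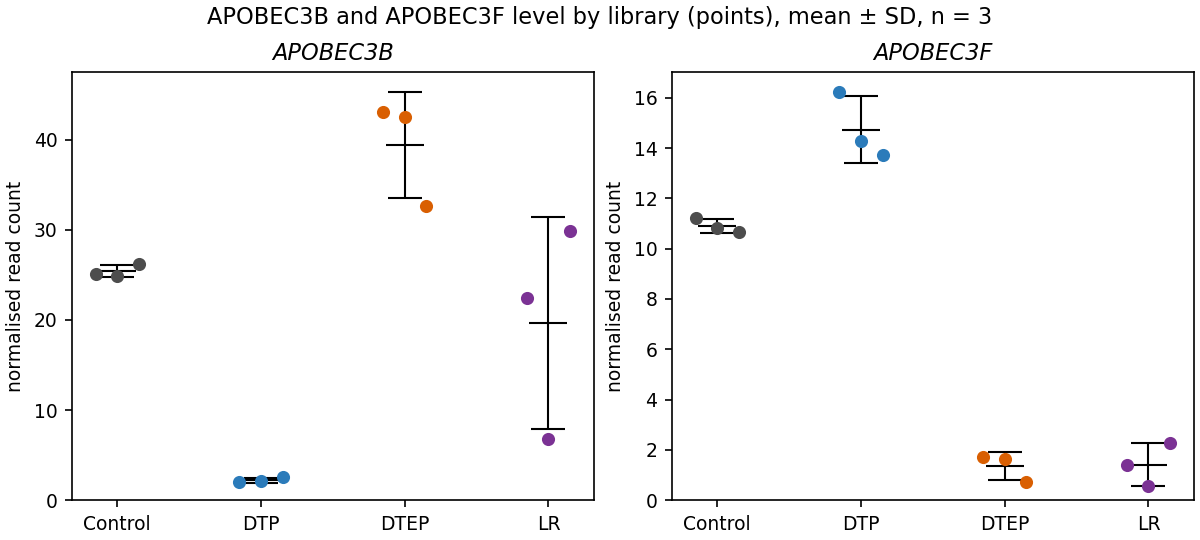
Normalised read count (vertical axes) of APOBEC3B and APOBEC3F in Control, DTP, DTEP and LR cells, with a point per library and bars for the mean ± SD of 3 libraries. APOBEC3B is lowest in DTP (2.04 to 2.53) and spreads from 6.75 to 29.8 in LR, while APOBEC3F is highest in DTP (13.7 to 16.2) and lies under 2.3 in every DTEP and LR library.

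Changes were tested with limma on log2(value + 1) over all 13794 genes, with Benjamini-Hochberg adjusted p-values, and a gene passed at an adjusted p under 0.05. Because of the added 1, such a log2 change understates that of low genes. From Control to DTP, APOBEC3B fell by 3.04 (SE 0.39, adjusted p = 6.15e-05), a mean 11.5 times lower in DTP. It was 1 of 2 tested members to pass, in a comparison where 54% of all tested genes passed. Of all tested genes, 28.8% passed downward and 25.2% upward, and 4.92% passed with a change above 2 as APOBEC3B did. From DTP to DTEP it rose by 3.65 (SE 0.39, adjusted p = 4.98e-06), a mean 17.8 times higher. Without DTEP replicate 3 that rise was 3.77 (adjusted p = 1.20e-05). Both tested members passed here with a change above 2, where 68.2% of all tested genes passed and 15.2% passed with a change above 2, 35.7% of tested genes rising and 32.6% falling.

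From DTEP to LR, APOBEC3B gave a log2 change of -1.18 (SE 0.39, adjusted p = 0.0704), which did not pass. Neither tested member passed, against 7.35% of all tested genes (3.04% higher, 4.31% lower, 0.681% with a change above 2). At an unadjusted p under 0.05, 1 member (APOBEC3B) would have passed limma, and likewise 1 in edgeR and 1 in DESeq2. Of all 13794 tested genes, 4809, 4867 and 5208 passed at that threshold in limma, edgeR and DESeq2. Adjusted p-values passed 0 members in edgeR and DESeq2 (0.0999 and 0.0587 for APOBEC3B). The call rested on single libraries: without DTEP replicate 3 the change was -1.30 (adjusted p = 0.0272), without LR replicate 3 -1.57 (adjusted p = 0.0265) and without LR replicate 2 -0.58 (adjusted p = 0.125). LR against DTP passed, with a change of 2.47 (SE 0.39, adjusted p = 0.000105) and means 8.88-fold apart.

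Calls from DTEP to LR depended on single libraries across the whole table. The 1014 genes that passed in limma fell to 153 when DTEP replicate 2 was left out and to 282 when LR replicate 2 was, and rose to 6548 when DTEP replicate 3 was. With only the 6 libraries compared they became 0, with 2260 at an unadjusted p under 0.05, and edgeR passed 1703 and DESeq2 3093. Each count and call for this step below carries that limit. With a single library left out, the calls of NPTXR, PLK1, IRF9, DDX58, OAS1, IFIT1 and PRKCD passed in all 12 removals, and those of the other genes named for this step were lost in at least 1, that without DTEP replicate 2 included.

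Against Control, APOBEC3B in DTEP gave 0.60 (SE 0.39, adjusted p = 0.199), with means 1.55-fold apart, and in LR -0.57 (SE 0.39, adjusted p = 0.213). Neither passed. The order of the APOBEC3B means was thus DTEP, Control, LR and DTP, and only DTP differed from its neighbours beyond the spread that the test allows. The spread within LR weighed on both values, since without LR replicate 2 the DTEP change of 0.60 passed (adjusted p = 0.0100) and the LR change became 0.02 (adjusted p = 0.923).

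APOBEC3F, the cytoplasmic restriction factor, stood at 11.2, 10.8 and 10.7 in Control (10.9 ± 0.287, SD, n = 3) and at 16.2, 14.3 and 13.7 in DTP (14.7 ± 1.33). The means of these groups were 1.35-fold apart, and the log2 change of 0.40 (SE 0.26, adjusted p = 0.211, limma) did not pass. In DTEP it was 1.72, 1.65 and 0.730 (1.37 ± 0.553), and in LR 1.39, 0.553 and 2.28 (1.41 ± 0.862). Every DTEP and LR library lay far below every Control and DTP library, and the DTEP and LR groups overlapped.

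From DTP to DTEP, APOBEC3F fell by 2.76 (SE 0.26, adjusted p = 1.86e-06, limma), a mean 10.8 times lower. Without DTEP replicate 3, its lowest DTEP library, the fall was -2.55 (adjusted p = 4.07e-06). Unlike APOBEC3B, it remained low against Control: the change was -2.36 in DTEP (adjusted p = 8.97e-06) and -2.37 in LR (adjusted p = 7.24e-06), with means 7.98-fold and 7.74-fold lower. In each of these comparisons 1 of the 2 tested members passed, with a change above 2, where 58.2% of tested genes passed for DTEP and 62.8% for LR, 10.6% and 12.8% with a change above 2. LR against DTP gave -2.77 (adjusted p = 1.46e-06), so both members passed with a change above 2, in opposite directions, where 71.5% of tested genes passed and 17.9% did so with such a change. The order of its means was DTP, Control, LR and DTEP. LR against DTEP gave -0.01 (SE 0.26, adjusted p = 0.980) and did not pass, as was so for DTP and Control, and each of the first pair of groups differed from each of the last pair.

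**Figure D2:**
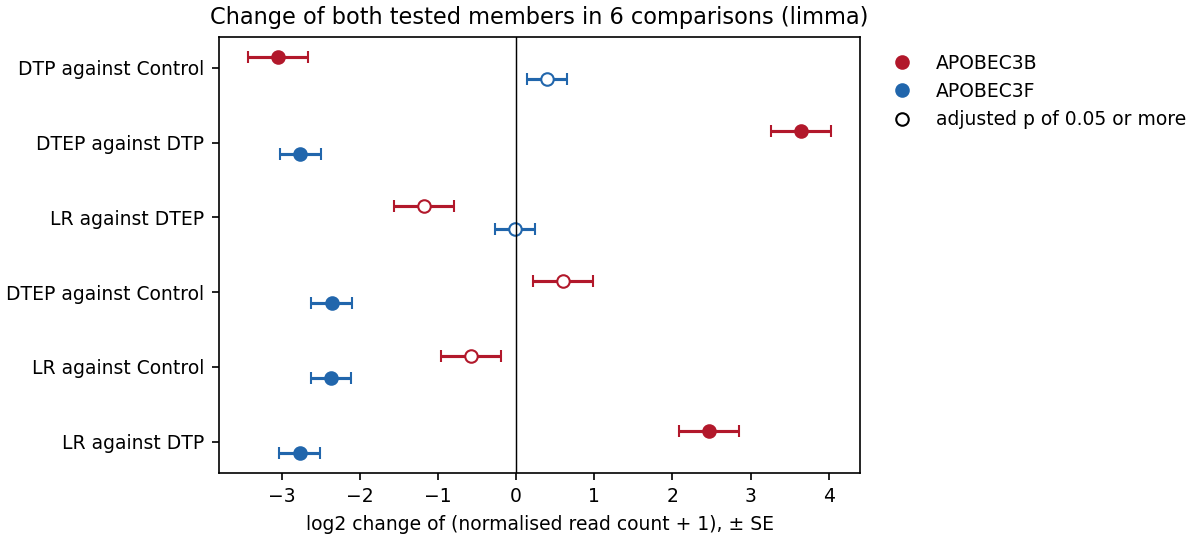
Log2 change of normalised read count + 1 (horizontal axis, bars are ± SE) for APOBEC3B and APOBEC3F in 6 comparisons between groups of 3 libraries. All come from a single limma fit to the 12 libraries, and points are filled where its adjusted p was under 0.05. Against DTP the members change in opposite directions, by 3.65 and -2.76 for DTEP and by 2.47 and -2.77 for LR.

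The other 5 members were at or near the detection limit. APOBEC3A, a deaminase with a single catalytic domain, had 19 reads in the 3 Control libraries (exact Poisson 95% interval 11.4 to 29.7), 18 in DTP (10.7 to 28.4), 2 in DTEP (0.242 to 7.22) and 6 in LR (2.20 to 13.06). Its normalised read counts were 0.230, 0.326 and 0.373 in Control and 0.418, 0.395 and 0.115 in DTP. In DTEP they were 0.0957, 0 and 0, and in LR 0, 0.332 and 0, so all 6 LR reads came from replicate 2, the library with the lowest APOBEC3B. It did not pass the filter on low values. With no filter, its change of -0.34 in DTEP passed against DTP (adjusted p = 0.0307) and against Control (adjusted p = 0.0330). In that setting 10656 and 8905 of all 20381 genes passed in the same comparisons.

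APOBEC3C, with a single domain as well, had 2 reads in Control, 4 in DTP and 0 in DTEP and LR. APOBEC3D had 2, 0, 2 and 1 in the same order. APOBEC3G, the HIV-1 restriction factor, and APOBEC3H had 0 reads in all 12 libraries, which allows a level of up to 0.124 to 0.173 normalised read counts per library (3 reads). These intervals and limits cover counting error only. Among the wider family, APOBEC1 had 0 reads in all 12 libraries, APOBEC2 2 and APOBEC4 1. The table also listed the fusion transcript APOBEC3A_B at 0 reads and the antisense gene APOBEC3B-AS1 at 1 read, in LR replicate 1.

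Levels between members can be compared only per length. Per kb of exon annotated in GENCODE, the normalised read count of APOBEC3B was 13.4 ± 0.372 for Control, 1.17 ± 0.146 for DTP, 20.8 ± 3.11 for DTEP and 10.4 ± 6.22 for LR. APOBEC3F on the same scale stood at 2.09 ± 0.0550, 2.83 ± 0.254, 0.262 ± 0.106 and 0.270 ± 0.165. APOBEC3B thus made up 85.5% of the summed family level of Control, 28.1% of that of DTP, 98.7% of that of DTEP and 96.0% of that of LR, and APOBEC3F 13.3%, 67.6%, 1.21% and 2.56%. The sum of all 7 members per kb was 15.7 for Control, 4.17 for DTP, 21.1 for DTEP and 10.7 for LR. The leading member was therefore APOBEC3F in DTP and APOBEC3B in the other 3 groups, in every library.

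**Figure D3:**
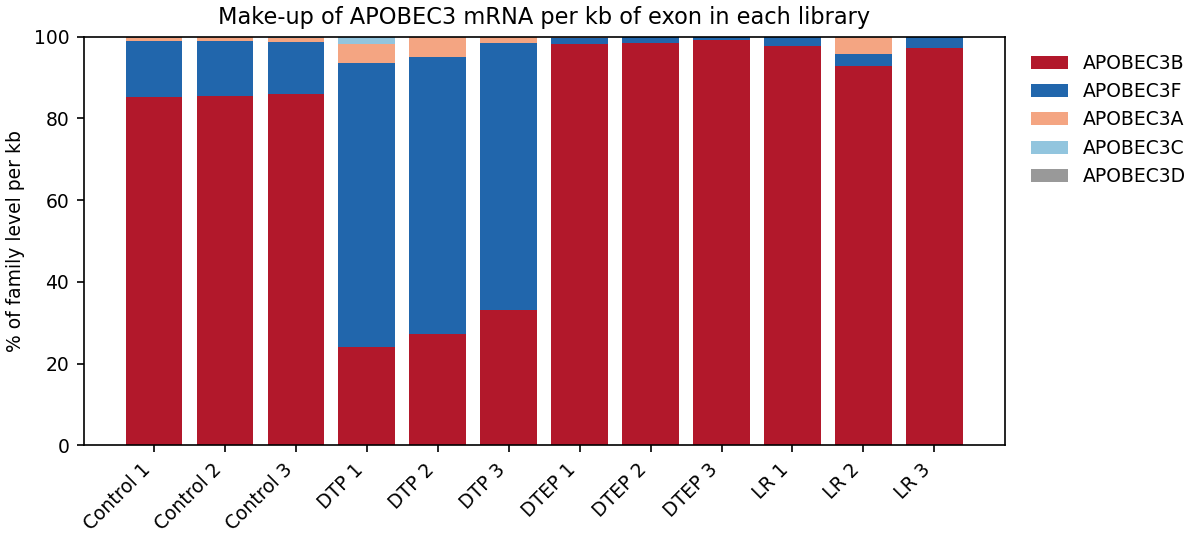
Share of the summed APOBEC3 level per kb of exon (vertical axis, %) taken by each member in each of the 12 libraries. APOBEC3F takes 65.3% to 69.6% in the DTP libraries, and APOBEC3B takes 85.2% to 85.9% in Control and at least 92.9% in every DTEP and LR library.

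The genes around the cluster were examined because the members share a locus. Of the 10 named protein-coding genes on each side, 19 were tested. At successive steps 10, 8 and 1 of the 19 passed, where 54%, 68.2% and 7.35% of all tested genes did. From Control to DTP, 8 rose and 2 fell (median log2 change 0.45, against -0.01 over all tested genes), and from DTP to DTEP 7 rose and 1 fell (0.33 against 0.08). From DTEP to LR 1 rose, NPTXR, a neuronal pentraxin receptor, by 1.40 (adjusted p = 0.00194, limma; median of the list 0.04 against -0.07), and without DTEP replicate 3 there were 9 calls. CBX7, a Polycomb subunit 26705 bases beyond APOBEC3H, rose by 1.52 in DTP (adjusted p = 9.67e-05), where APOBEC3B fell. It gave -0.12 from DTP to DTEP (adjusted p = 0.628), where both tested members changed. DNAL4, a dynein light chain, also rose in DTP, by 1.38 (adjusted p = 4.49e-05).

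DMC1, a meiotic recombinase, fell and then rose at the same steps as APOBEC3B, with -2.19 in DTP (adjusted p = 3.48e-05) and 1.46 in DTEP (adjusted p = 0.000271). Its means were 5.36 ± 0.590 for Control, 0.393 ± 0.114 for DTP, 2.89 ± 0.779 for DTEP and 1.30 ± 0.851 for LR. NPTXR fell at both steps, by 0.96 and 1.81 (adjusted p = 0.000423 and 1.26e-06), and SUN2, a nuclear envelope protein, rose by 1.50 from DTP to DTEP (adjusted p = 2.38e-06). SUN2 overlaps its neighbour GTPBP1, so its reads are uncertain to that extent. Among the 19 tested neighbours, NPTXR alone passed with a fall from DTP to DTEP, the step at which APOBEC3F fell, and 11 did not pass.

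**Figure D4:**
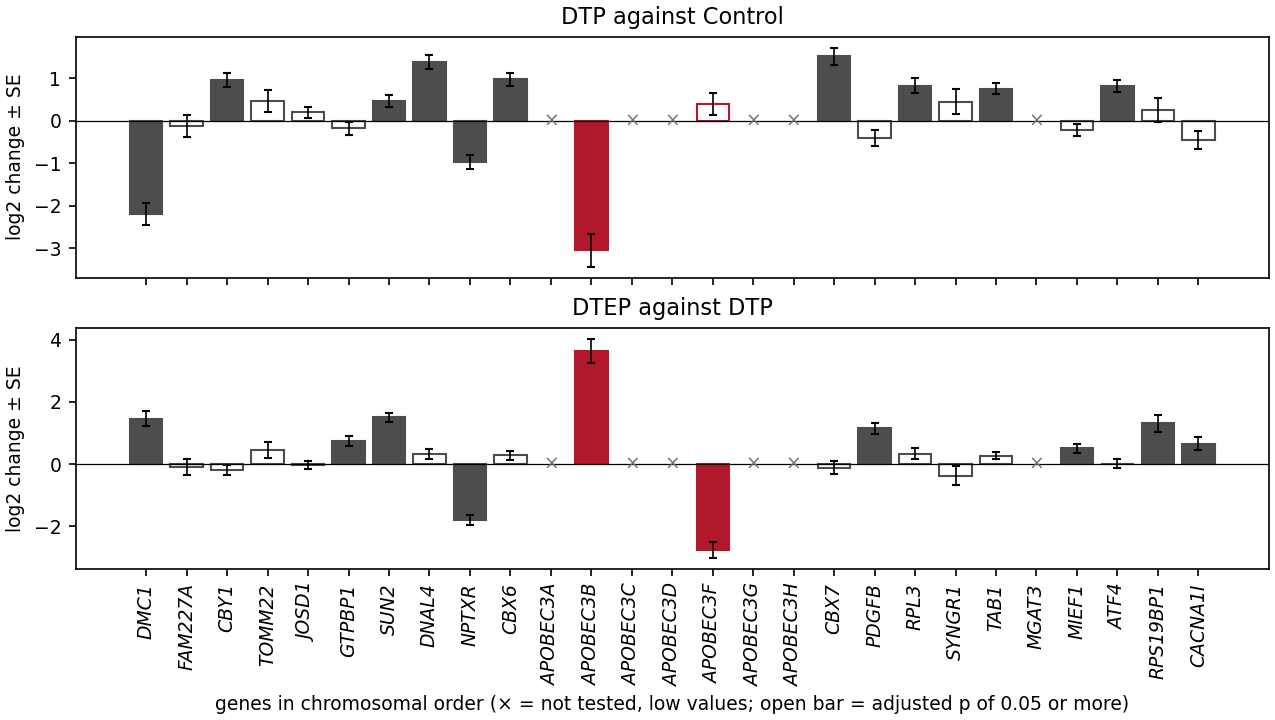
Log2 change ± SE (vertical axes) of the APOBEC3 members and the 10 named genes on each side, in chromosomal order, for DTP against Control and DTEP against DTP, with filled bars at an adjusted p under 0.05 and crosses for genes with values too low to test. APOBEC3B has the largest fall and then the largest rise of the row (-3.04 and 3.65), and APOBEC3F the largest fall in DTEP against DTP (-2.76).

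UNG, which excises the uracil that deamination leaves in DNA, moved with APOBEC3B. It stood at 140, 146 and 138 in Control, 51.5, 52.0 and 51.6 in DTP, at 152, 142 and 103 in DTEP and at 71.0, 45.5 and 106 in LR. It fell by 1.43 in DTP (adjusted p = 0.000448, limma), rose by 1.32 in DTEP (adjusted p = 0.000419) and fell by 0.89 in LR (adjusted p = 0.0479). Without LR replicate 2 that last change was -0.59 (adjusted p = 0.128).

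Of 20 genes of uracil excision, abasic site repair and translesion synthesis, all tested, 1 rose and 9 fell in DTP (median -0.45), 9 rose and 2 fell from DTP to DTEP (0.60), and 3 fell from DTEP to LR (-0.31). At these steps 10, 11 and 3 of the 20 passed, against 54%, 68.2% and 7.35% of all tested genes (medians -0.01, 0.08 and -0.07). LIG1, the replicative DNA ligase, gave -1.54 in DTP (adjusted p = 0.00218) and 2.27 in DTEP (adjusted p = 7.03e-05). FEN1, the flap endonuclease, fell by 1.81 in DTP (adjusted p = 0.00280). MSH6, a mismatch repair gene, rose by 1.47 from DTP to DTEP (adjusted p = 5.76e-06). APEX1, the main abasic site endonuclease, rose by 0.90 in DTP (adjusted p = 0.000495) and fell by 1.70 in DTEP (adjusted p = 1.42e-06), the direction opposite to APOBEC3B at both steps. SMUG1, another uracil glycosylase, fell by 0.53 from DTP to DTEP (adjusted p = 0.0127, and 0.0530 without DTP replicate 1). In LR, LIG1 fell by 1.21 and APEX2, a further abasic site endonuclease, by 0.67 (adjusted p = 0.0485 and 0.0273). Without LR replicate 2 the change of LIG1 was -0.69 (adjusted p = 0.0542). The count of 3 at this step ranged from 0 to 12 with a library left out, the 12 without DTEP replicate 3.

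Of 15 other deaminases and their cofactors, 7 were tested. In DTP 1 rose and 2 fell (median -0.20), from DTP to DTEP 4 rose and 1 fell (0.56), and 1 rose in LR (0.16), a count of 4 without DTEP replicate 3. Thus 3, 5 and 1 of the 7 passed, where 54%, 68.2% and 7.35% of all tested genes did. The RNA editors ADARB1 and ADAR were of this group. ADARB1 rose by 0.65 in DTP (adjusted p = 0.0105) and fell by 0.81 in DTEP (adjusted p = 0.00198), and ADAR rose by 0.83 in LR (adjusted p = 0.0304). DCTD, which deaminates dCMP to supply dUMP for thymidylate synthesis, rose by 1.21 in DTEP (adjusted p = 0.000369), and ADAT2, of the tRNA deaminase, by 0.99 (adjusted p = 0.0250, a call lost without DTP replicate 1 or 2 or DTEP replicate 1 or 2, where it was 0.0514 to 0.0748). ADAT1, another tRNA deaminase, and RBM47, an APOBEC1 cofactor, fell in DTP by 1.55 and 0.76 (adjusted p = 7.55e-05 and 0.00253).

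Among cell cycle regulators of the family, FOXM1 followed the order of APOBEC3B with wider changes. Its means were 188 ± 5.17, 5.14 ± 0.746, 277 ± 38.3 and 110 ± 45.2 in Control, DTP, DTEP and LR, with log2 changes of -4.95, 5.50 and -1.40 at successive steps (adjusted p = 9.17e-08, 7.39e-09 and 0.0111, limma). MYBL2, the B-Myb subunit of the MMB complex, stood at 120 ± 7.73, 2.90 ± 0.269, 357 ± 200 and 66.8 ± 44.7, with changes of -4.96, 6.30 and -2.49 (adjusted p = 3.42e-05, 1.50e-06 and 0.0302). Of 20 DREAM and MMB subunits and regulators, 2 rose and 12 fell in DTP (median -1.16), 12 rose and 3 fell from DTP to DTEP (0.84), and 3 fell in LR (-0.23). That is 14, 15 and 3 of the 20, against 54%, 68.2% and 7.35% of all tested genes. E2F1, an activating E2F, fell by 1.94 in LR (adjusted p = 0.0459), or by 1.22 without LR replicate 2 (adjusted p = 0.106). The count of 3 in LR ranged from 0 without DTEP replicate 2 to 10 without DTEP replicate 3. LIN37, a core subunit, and E2F4, a repressive E2F, rose in DTP by 0.90 and 0.46 (adjusted p = 0.00159 and 0.0300), and CDKN1A, which encodes the p21 inhibitor, fell by 2.44 from DTP to DTEP (adjusted p = 0.0101), or by 1.37 without DTEP replicate 3 (adjusted p = 0.0145). The call of E2F4 was lost without any of the Control libraries or DTP replicate 1 or 2 (adjusted p = 0.0717 to 0.0990).

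Proliferation markers moved with APOBEC3B at the first 2 steps. All 20 fell in DTP (median -4.03), all 20 rose from DTP to DTEP (4.34), and 14 fell in LR (-1.69), a count that was 7 without DTEP replicate 2 and 20 without LR replicate 3. Among all tested genes, 28.8% fell in DTP, 35.7% rose from DTP to DTEP and 4.31% fell in LR. MKI67 stood at 224 ± 4.84, 2.71 ± 0.795, 563 ± 87.5 and 292 ± 108. RRM2, of ribonucleotide reductase, changed by -6.12 and 6.55 (adjusted p = 3.01e-05 and 4.98e-06), and the mitotic kinase PLK1 and the origin licensing factor CDC6 fell in LR by 2.0 and 1.97 (adjusted p = 0.00551 and 0.0365). The summed level of the 20 was 3611 to 3628 for Control, 420.0 to 446 for DTP, 2770 to 4770 for DTEP and 927 to 2192 for LR. How much of the APOBEC3B change goes with the number of cycling cells was not tested.

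Within LR, the summed markers followed the library order of APOBEC3B, although single markers did not all do so. APOBEC3B was lowest in replicate 2, then replicate 1, and highest in replicate 3 (6.75, 22.4 and 29.8), as were the marker sum (927, 1443 and 2192), FOXM1 (63.9, 112 and 154) and MYBL2 (19.0, 73.8 and 108). Of all tested genes 23.3% had this order, against 14 of 20 proliferation markers, 12 of 20 DREAM and MMB genes, 9 of 20 uracil repair genes and 2 of 25 other restriction factors. PLK1, a marker without it, read 25.4, 48.9 and 41.5 in replicates 1, 2 and 3. APOBEC3F had it too (0.553, 1.39 and 2.28). This is a description of 3 libraries, with no test.

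**Figure D5:**
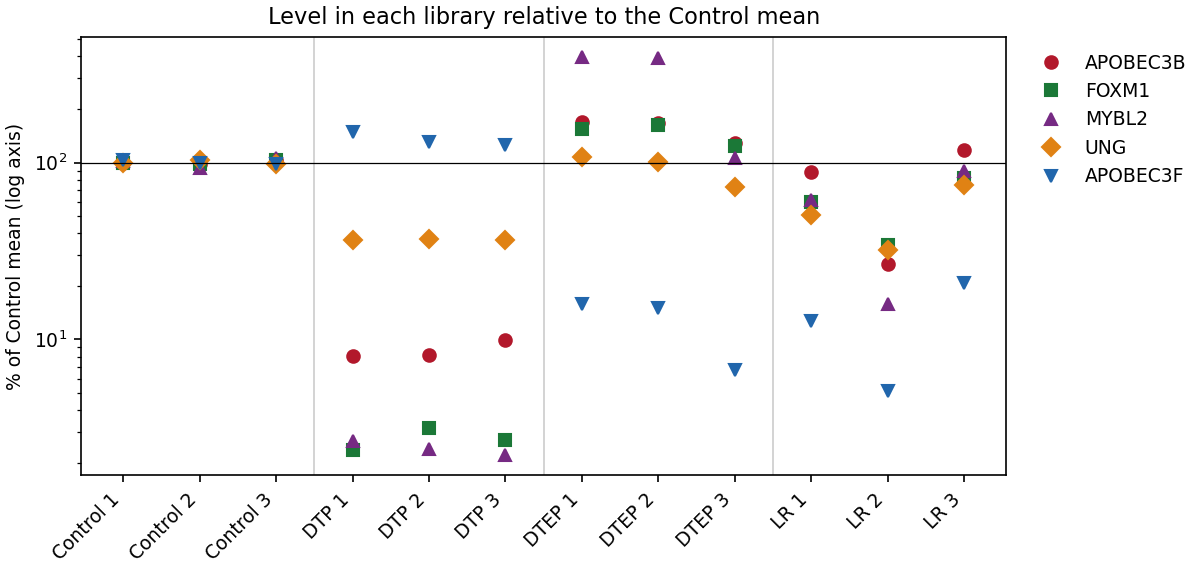
Normalised read count of APOBEC3B, FOXM1, MYBL2, UNG and APOBEC3F in each of the 12 libraries as % of that gene's Control mean (log axis). In DTP, UNG stays above APOBEC3B and both lie above FOXM1 and MYBL2, whereas APOBEC3F lies above its Control mean, and LR replicate 2 is the lowest LR library of all 5 genes.

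Interferon is a known inducer of several APOBEC3 genes. Of 23 interferon signalling genes, 7 rose and 4 fell in DTP (median 0.06), 7 rose and 12 fell from DTP to DTEP (-0.49), and 5 rose and 1 fell in LR (0.35). So 11, 19 and 6 of the 23 passed, where 54%, 68.2% and 7.35% of all tested genes did. With a library left out, 3 to 15 passed in LR, from 3 without DTEP replicate 2 to 15 without DTEP replicate 3.

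IRF7, a transcription factor of the interferon response, rose by 2.98 from DTP to DTEP (adjusted p = 4.10e-07), where APOBEC3F fell, and IRF1 fell by 2.14 (adjusted p = 1.08e-05). USP18 and SOCS3, both feedback inhibitors, went opposite ways at that step, by 1.96 and -1.95 (adjusted p = 3.04e-06 and 1.05e-05). In DTP, SOCS3 and STAT2 rose by 2.11 and 1.08 (adjusted p = 1.93e-05 and 0.00199) and USP18 fell by 1.19 (adjusted p = 0.000346). IRF9 and DDX58, an RNA sensor, rose by 2.66 and 2.61 in LR (adjusted p = 0.00194 and 0.00631) and the receptor chain IFNAR2 fell by 0.81 (adjusted p = 0.0310).

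Of 28 other antiviral restriction factors listed, 25 were tested: 4 rose and 11 fell in DTP (median -0.28), 9 rose and 10 fell from DTP to DTEP (0.07), and 13 rose and 1 fell from DTEP to LR (0.82 against -0.07 over all tested genes). At these steps 15, 19 and 14 of the 25 passed, against 54%, 68.2% and 7.35% of all tested genes. In LR 11 did not pass, and with a library left out 7 (without DTEP replicate 1) to 18 (without DTEP replicate 3) passed. OAS1 and IFIT1, both induced by interferon, rose by 4.56 and 5.12 in LR (adjusted p = 0.00194 and 0.00197). Their LR libraries read 89.1, 36.0 and 11.1 for OAS1 and 306, 84.5 and 30.7 for IFIT1, so replicate 3, with the highest APOBEC3B, was the lowest for both. TREX1, a DNA exonuclease, fell by 0.71 (adjusted p = 0.0464).

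From DTP to DTEP the largest changes among restriction factors were those of BST2 (tetherin), which rose by 7.73 (adjusted p = 5.33e-10), OAS3, which rose by 4.26 (adjusted p = 5.34e-07), MX2, which fell by 4.29 (adjusted p = 7.04e-07), and IFITM3, which fell by 3.84 (adjusted p = 2.99e-07). MX2, an inhibitor of HIV-1 nuclear entry, stood at 37.4 ± 1.49 for Control, 50.7 ± 1.20 for DTP, 2.0 ± 1.82 for DTEP and 0.407 ± 0.320 for LR, means in the same order over the first 3 groups as those of APOBEC3F. In DTP, OAS3 and EIF2AK2, the kinase PKR, fell by 3.26 and 2.77 (adjusted p = 1.72e-05 and 3.42e-05), and IFIT2 and IFITM3 rose by 1.08 and 1.07 (adjusted p = 0.0247 and 0.00748). The call of IFIT2 was lost without Control replicate 1 or 2 or DTP replicate 1 or 3 (adjusted p = 0.0524 to 0.0865).

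NF-kB, in particular its noncanonical subunit RELB, is a known activator of APOBEC3B. RELB stood at 1.24 ± 0.462 for Control, 2.22 ± 0.686 for DTP, 0.332 ± 0.252 for DTEP and 0.941 ± 0.445 for LR, so its means were highest where those of APOBEC3B were lowest and the reverse. Its fall from DTP to DTEP passed (-1.27, adjusted p = 0.000385, limma), and its change in DTP did not (0.52, adjusted p = 0.0728). Of 20 NF-kB genes, 6 rose and 6 fell in DTP (median 0.07), 7 rose and 8 fell from DTP to DTEP (0.01), and 2 rose and 1 fell in LR (0.16), where 1 (without DTEP replicate 1 or 2 or LR replicate 2) to 10 (without DTEP replicate 3) passed with a library left out. With all libraries these were 12, 15 and 3 of the 20, against 54%, 68.2% and 7.35% of all tested genes. MAP3K14, the NIK kinase of the noncanonical arm, rose by 1.56 in DTP (adjusted p = 4.60e-05) and fell by 1.67 in DTEP (adjusted p = 8.86e-06), and RELA fell by 1.32 in DTEP (adjusted p = 2.67e-05).

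PRKCD, a protein kinase C, rose by 1.44 in DTP and 0.96 in LR (adjusted p = 3.33e-05 and 0.0101), and PRKCA, another, fell by 2.24 in DTP and rose by 1.37 in LR (adjusted p = 5.81e-05 and 0.0204). REL fell by 2.27 in DTP (adjusted p = 0.0319), a call lost without any of the Control libraries or DTP replicate 1 or 2 (adjusted p = 0.0609 to 0.0947). IKBKG and NFKBIZ rose by 1.77 and 1.60 in DTEP (adjusted p = 3.42e-06 and 1.95e-05), and TRAF2 fell by 0.92 in LR (adjusted p = 0.0351).

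The genes whose log2 values over the 12 libraries were most like those of APOBEC3B were WDR76, RAD54L and DTL, with Pearson's r of 0.997, 0.997 and 0.995. The points share the same libraries and fall into 4 groups, so r mainly describes the pattern of group means. RAD54L, a homologous recombination factor, stood at 29.3 ± 0.404 in Control, 0.942 ± 0.174 in DTP and 62.1 ± 13.2 in DTEP, with 26.8, 4.81 and 45.8 in LR. DTL, a ubiquitin ligase adaptor of S phase, stood at 91.7 ± 3.09, 1.70 ± 0.397 and 152 ± 34.0, with 89.1, 7.97 and 136 in LR. For APOBEC3F they were LINC00888, BACE2 and CADM4, with r of 0.992, 0.991 and 0.989. BACE2, an aspartyl protease, stood at 15.1 ± 0.698 in Control, 18.5 ± 0.769 in DTP and 2.75 ± 1.18 in DTEP. CADM4, a cell adhesion molecule, stood at 33.5 ± 2.56, 47.4 ± 6.33 and 10.1 ± 3.71.

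The luminal markers that passed went in both directions at each step. From DTP to DTEP, the step at which APOBEC3F fell, all 15 passed, 7 rising and 8 falling (median -1.04). In DTP 3 rose and 5 fell (-0.18), and in LR 2 rose and 2 fell (-0.27). Among all tested genes 68.2% passed from DTP to DTEP, 54% in DTP and 7.35% in LR. The 8 calls in DTP became 5 without Control replicate 2 or DTP replicate 1 or 2, and the 4 in LR became 1 without DTEP replicate 2 and 9 without DTEP replicate 3. ESR1, the oestrogen receptor, and its target PGR fell by 4.05 and 4.20 at that step (adjusted p = 5.20e-05 and 0.000207, limma), whereas TFAP2B, listed at 0.131 ± 0.0740 in Control, rose by 9.46 (adjusted p = 1.80e-11). Their part in the changes of the members was not tested. Of the blood markers 2 were tested: LYZ rose in DTP by 1.18 and fell in DTEP by 1.33 (adjusted p = 0.00184 and 0.000481), and CD68 fell in LR by 0.83 (adjusted p = 0.0320).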

How the data were processed

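Per the labels and the study's methods, the authors made TruSeq stranded mRNA libraries, sequenced them on a NovaSeq and aligned and counted reads with Rsubread 2.0.0 on hg38 (GRCh38) and RefSeq gene models at default settings. No strand setting was stated, and the default ignores strand, so sense and antisense reads cannot be told apart. The submitters' processing notes also name bcl2fastq and edgeR. The deposited signal is a normalised read count (CPM after TMM scaling). All 199680 values above 0 came out as whole reads (100%, tolerance 1e-06), which gave depth and reads per gene. Of the 26485 rows, 1016 had no symbol.

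The 13794 genes that reached a value of 1 in 3 or more libraries were tested with limma 3.58.1 (R 4.3.3) on log2(value + 1), with trend, all 12 libraries in a single model, two-sided, Benjamini-Hochberg adjustment over all of them and a threshold of 0.05. A log2 change above 2, the study's further threshold, was counted beside it. Fits to the recovered reads used edgeR 4.0.16 (quasi-likelihood) and DESeq2 1.42.0. Scripts were tested on simulated data. Other alternatives were the pseudocount, the filter, scaling, no trend, only the libraries compared, a replicate block and leaving out each library. Depth was 16383363 to 25030482 reads.

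The replicate numbers showed no regular pairing of libraries, and the fit without a block is reported. The members and gene lists were chosen with earlier results of these data known. Named genes were the 7 members, UNG, FOXM1, MYBL2, RELB and MKI67, per list and successive step the 2 largest rises and 2 largest falls that passed without overlap between groups, and the 3 genes most correlated with each tested member. ERBB2 and the other luminal markers served to check the cell line. RefSeq supplied loci, and GENCODE 44 exon and transcript lengths and coding sequences, both on GRCh38. Levels per kb thus divide counts made on RefSeq gene models by GENCODE lengths. Protein sequences and promoters were not used here, and some genes that the rule names are not reported here.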

Additional observations from a re-analysis of the deposited data

How the results depend on the processing

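The fall of APOBEC3B in DTP, its rises from DTP to DTEP and LR, and the 4 falls of APOBEC3F kept their direction and passed in all 23 alternatives, with edgeR's quasi-likelihood test giving -3.46 for APOBEC3B in DTP (adjusted p = 8.19e-05), 4.12 from DTP to DTEP (adjusted p = 7.72e-06) and -3.45 for APOBEC3F from DTP to DTEP (adjusted p = 2.08e-05). Results near the threshold moved. With only the 6 libraries compared, APOBEC3F in DTP passed (0.40, adjusted p = 0.00950), making 2 members, and APOBEC3B in DTEP against Control passed (0.60, adjusted p = 0.0157), again making 2. In that setting 10067 of all 13794 tested genes passed in DTP and 7442 in DTEP against Control, where the main fit passed 7447 and 8027. Leaving out a library gave 0 to 1 members from DTEP to LR (APOBEC3B -1.57 to -0.58), 1 to 2 in DTEP against Control (0.53 to 0.73) and 1 to 2 in LR against Control (-0.97 to 0.0238, past the test without LR replicate 3 at adjusted p = 0.0358). Of all 13794 tested genes, 8239 passed in DTEP against Control without LR replicate 2. Without LR replicate 3, 8346 passed in LR against Control and 1154 from DTEP to LR. With no filter, 2 members passed in DTEP against Control, APOBEC3F and APOBEC3A, where 8905 of 20381 genes passed. APOBEC3F from DTEP to LR changed sign without passing: 0.0109 with median-of-ratios scaling, 0.10 with edgeR, 0.0817 with DESeq2 and -0.27 to 0.27 with a library left out. The cause of these changes was not tested. The correlation of deviations between libraries with the same replicate number was -0.441 to 0.359 and was over 0.1 in 2 of 18 pairs. No regular pairing was seen, although deviations within groups of 3 libraries cannot exclude one. A replicate block changed no member's call: APOBEC3B in DTP stayed at -3.04. With the longest transcript as length, the APOBEC3B share in Control was 83.8%. Counts of the gene lists moved over 1.5 times in 141 of 750 comparisons of a list with an alternative, 41 of them with an added threshold on size. Reads of the 5 low members limit any statement on them to counts.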
